A study of Mus musculus with 4 samples.

Results

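Tropomyosins are coiled-coil proteins that lie end to end along actin filaments and decide which other proteins can bind there. Most tropomyosin genes make both muscle and cytoskeletal proteins, through alternative promoters, alternative exons or both. In striated muscle the long forms sit in the thin filament of the sarcomere and carry the troponin complex. Other forms line stress fibres and the cell cortex. Tropomodulins cap the pointed end of tropomyosin-coated actin filaments. The genes described here are Tpm1, Tpm2, Tpm3, Tpm4, Tmod1, Tmod3 and Tmod4, taken by symbol, with every transcript listed for them. They were 7 of 13824 gene symbols and 37 of 36231 transcripts. On mm10, Tpm1 lies at chr9:67022590-67049406 and Tpm2 at chr4:43514711-43523765, both on the minus strand, Tpm3 at chr3:90072649-90100902 and Tpm4 at chr8:72134975-72153142, both on the plus strand. Tmod1 lies at chr4:46038935-46116032 (plus), Tmod3 at chr9:75497707-75559657 (minus) and Tmod4 at chr3:95124476-95129209 (plus).

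The RNA came from C2C12, a mouse myoblast line that fuses into myotubes when serum is lowered. Cells received siRNA at 30 nM with Lipofectamine and were held for 48 h in DM, a differentiation medium with horse serum, in every library. The siRNA targeted MEF2A, a muscle transcription factor, in 2 libraries and was a scrambled sequence in the other 2. The labels do not say whether the libraries of a group were separate cultures, so the p-values rest on library-to-library spread that may be technical. Values are the authors' FPKM (mapped fragments per kilobase of a transcript's length, scaled to library size) for each Ensembl transcript, so levels are per length. Fold changes are siMEF2A minus scrambled on the log2(FPKM + 1) scale, which understates changes of low transcripts. Means are given with the SD over 2 libraries, and a feature was called at a limma p below 0.05 after Benjamini-Hochberg adjustment over all features tested.

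Mef2a itself had 12.7 and 14.3 FPKM in the siMEF2A libraries, against 25.8 and 32.2 FPKM in the scrambled libraries, and its mean in siMEF2A was 46.5% of the scrambled mean (log2 fold change -1.05, SE 0.15, limma adjusted p = 2.98e-05). Relative depth, read from the ratio of values most often shared among 600 low genes, was estimated at 0.849 of scrambled replicate 1 in both siMEF2A libraries and at 1.05 in scrambled replicate 2. Between 11 and 17 genes shared that ratio within 0.3%, so the estimate is rough. Absolute depth is unknown. Of 7 skeletal muscle markers, 4 were lower in siMEF2A (Myog, Myh3, Ckm and Ttn) and none was higher, where 1.31% of all 11824 genes tested were called lower and 0.406% higher. Their summed level was 331 and 380 FPKM in siMEF2A, against 530 and 598 FPKM in scrambled libraries. In bulk RNA, fewer differentiated cells and less RNA per cell cannot be told apart. The part of differentiation in the results below was not tested.

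The exons that separate the forms were located in the GENCODE M21 annotation on mm10, the build of the files, and their names were assigned by hand. Exon 1a begins the long proteins and exon 1b the short ones. Exon 9a ends the striated muscle proteins, and exon 9d ends most non-muscle and smooth muscle proteins. Transcripts whose coding part begins in 1a and ends in 9a or 9b are called the muscle class here. Those that begin in 1b, or end in 9c or 9d, are called the cytoskeletal class, which therefore also holds the long smooth muscle forms. Transcripts with no complete coding part are called other. The coding parts of the last exons are shown because this choice divides the transcripts on which the results turn. They read 5′ to 3′ in the direction of transcription, without the stop codon, and capitals mark bases that differ, position by position without gaps, from the other last exon of the same gene.
Tpm1 exon 9a, chr9:67029664-67029742, minus strand: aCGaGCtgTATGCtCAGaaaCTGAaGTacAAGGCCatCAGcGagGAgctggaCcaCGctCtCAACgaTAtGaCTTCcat
Tpm1 exon 9d, chr9:67023362-67023441, minus strand: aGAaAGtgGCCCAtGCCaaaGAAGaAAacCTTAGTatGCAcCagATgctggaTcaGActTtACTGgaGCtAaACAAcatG
Tpm2 exon 9a, chr4:43515924-43516003, minus strand: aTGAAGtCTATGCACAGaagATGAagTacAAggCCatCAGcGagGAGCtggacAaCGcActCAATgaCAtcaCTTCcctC
Tpm2 exon 9d, chr4:43514782-43514861, minus strand: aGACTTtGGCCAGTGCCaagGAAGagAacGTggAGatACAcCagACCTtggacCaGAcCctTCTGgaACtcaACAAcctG
Tpm3 exon 9a, chr3:90091013-90091091, plus strand: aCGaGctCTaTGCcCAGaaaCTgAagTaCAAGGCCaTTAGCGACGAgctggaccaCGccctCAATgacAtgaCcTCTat
Tpm3 exon 9d, chr3:90099528-90099607, plus strand: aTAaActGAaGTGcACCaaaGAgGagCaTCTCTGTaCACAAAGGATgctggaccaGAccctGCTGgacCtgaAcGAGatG

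Within a gene the last exons were unlike each other: 9a and 9d matched at 34 of 79 positions in Tpm1 (43.0%), 33 of 80 in Tpm2 (41.3%) and 36 of 79 in Tpm3 (45.6%). Between genes the same exon was closer: 9a matched at 82.3% to 88.6% of positions among Tpm1, Tpm2 and Tpm3, and 9d at 58.8% to 71.3% among Tpm1, Tpm2, Tpm3 and Tpm4. All 4 tropomyosin genes were listed with a transcript ending in 9d, and only Tpm4 had none ending in 9a. In Tpm1-205 and Tpm3-205 the last codon is finished by 1 base of the exon after 9a.

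With all 4 libraries and these settings, the only member transcript called in any test was the muscle form of Tpm1, set against the other transcripts of its gene. Tpm1-205, which joins exons 1a, 2b, 6b and 9a as the striated muscle alpha-tropomyosin does, had 60.8 and 66.3 FPKM in siMEF2A libraries, against 114 and 130 FPKM in scrambled libraries. Both siMEF2A values lay below both scrambled values, and the siMEF2A mean was 52.2% of the scrambled mean. Its own log2 fold change was -0.93 (SE 0.16), with an unadjusted limma p of 0.000407 and an adjusted p of 0.105 over 23601 transcripts, so it was not called as a transcript. Its share of the listed Tpm1 RNA was 14.2% and 14.3% in siMEF2A libraries, against 26.0% and 24.4% in scrambled libraries. Of its 50-base stretches, 12.6% occur in no other listed Tpm1 transcript, so its value rests partly on how fragments were divided. Set against the other Tpm1 transcripts with limma's diffSplice, Tpm1-205 was lower by a difference of log2 fold changes of -0.83, and this passed (adjusted p = 0.0205 over 17072 transcripts of genes with several). The difference is from the plain mean over the other tested Tpm1 transcripts, where each counts alike whatever its level. Tpm1-205 was the only member transcript to pass that test. The test pools the spread over the tested Tpm1 transcripts as if independent, though they share sequence and the same 4 libraries, so its p may be too small. Among all 17072 transcripts, 0.146% passed it in the lower direction and 0.187% in the higher. The call was lost without scrambled replicate 2 (adjusted p = 0.0530), without siMEF2A replicate 1 (adjusted p = 0.141) and without siMEF2A replicate 2 (adjusted p = 0.146). A pseudocount of 0.1 (adjusted p = 0.0584), no filter on low values (adjusted p = 0.1001) and quantile normalization (adjusted p = 0.0509) each lost it as well.

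The other muscle transcripts of Tpm1 were scarcer, and their groups overlapped. Tpm1-201, in which the untranslated end runs on from 9a, had 10.7 and 13.1 FPKM in siMEF2A, against 15.2 and 12.5 FPKM in scrambled libraries. Tpm1-207, which ends in 9b, had 9.02 and 13.0 FPKM in siMEF2A, against 12.0 and 14.1 FPKM in scrambled libraries. Neither was called (log2 fold changes -0.21 and -0.25, limma adjusted p = 1.00 for each). Of their 50-base stretches, 46.7% in Tpm1-201 and 5.15% in Tpm1-207 occur in no other listed Tpm1 transcript. The annotation holds another muscle transcript, Tpm1-203, which was not among the transcripts listed.

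**Figure D1:**
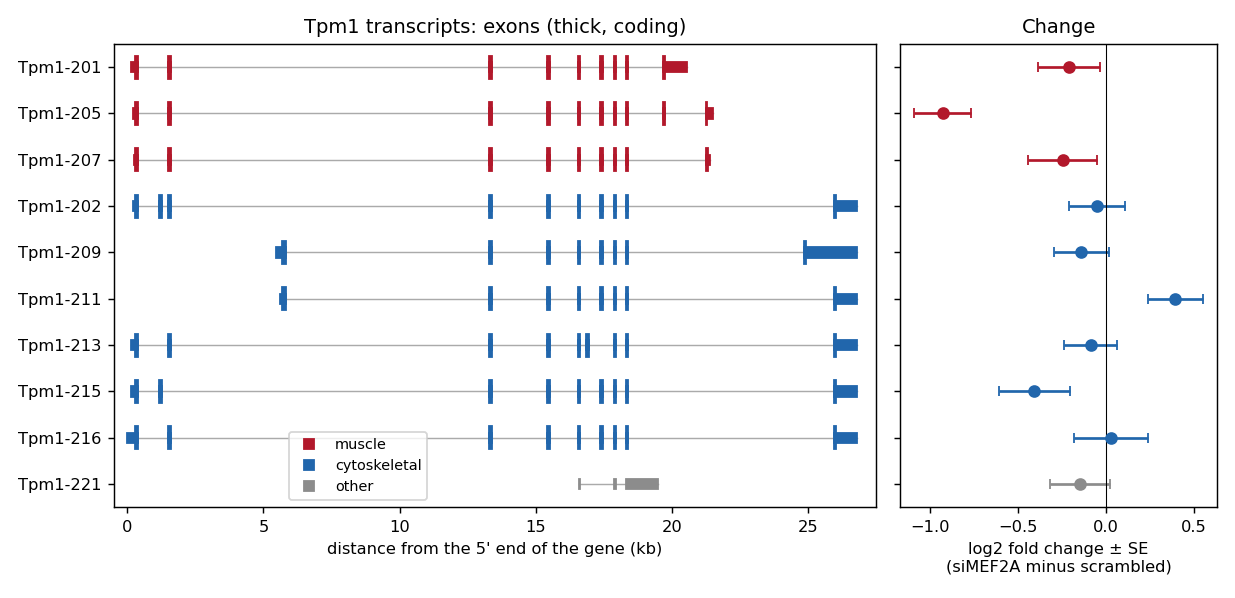
Tpm1 transcripts with a mean of at least 1 FPKM. The left panel draws exons along the distance from the 5′ end of the gene in kb, thick where coding and coloured by class (muscle above, cytoskeletal below it, other last), and the right panel gives each log2 fold change, siMEF2A minus scrambled, with its SE. Tpm1-205 lies lowest at -0.93, and Tpm1-211, which starts at exon 1b, lies highest at 0.40.

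No cytoskeletal Tpm1 transcript was called. Tpm1-211, the short form that begins in 1b and ends in 9d, had 103 and 101 FPKM in siMEF2A libraries, against 73.1 and 81.4 FPKM in scrambled libraries. Its siMEF2A values both lay above the scrambled ones, at 132% of the scrambled mean, but it was not called (log2 fold change 0.40, SE 0.16, limma adjusted p = 0.803). Against the other Tpm1 transcripts it stood 0.64 higher on the log2 scale, also without a call (adjusted p = 0.138). No stretch of 50 bases in Tpm1-211 is absent from the other listed Tpm1 transcripts, so its value rests on how fragments were divided. Tpm1-216, a long form that ends in 9d and the most abundant Tpm1 transcript, had 204 and 228 FPKM in siMEF2A, against 178 and 251 FPKM in scrambled libraries. Its scrambled libraries enclosed the siMEF2A values. Of its 50-base stretches, 7.08% occur in no other listed Tpm1 transcript. Tpm1-213, which uses exon 6a in place of 6b, had 13.8 and 14.3 FPKM in siMEF2A, against 14.8 and 15.1 FPKM in scrambled libraries. Tpm1-202, Tpm1-209 and Tpm1-215 had means of 8.77, 6.52 and 0.782 FPKM in siMEF2A, against 9.12, 7.28 and 1.36 FPKM in scrambled libraries, and none was called. Stretches of 50 bases found in no other listed Tpm1 transcript made up 2.65% of Tpm1-202 and 38.3% of Tpm1-209. Tpm1-213 and Tpm1-215 had no such stretch.

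Summed by first exon, Tpm1 transcripts from 1a had 308 and 346 FPKM in siMEF2A, against 345 and 432 FPKM in scrambled libraries. Those from 1b had 109 and 107 FPKM in siMEF2A, against 80.8 and 88.2 FPKM in scrambled libraries. The 1a sums of the groups overlapped by 1 library, and the 1b sums did not overlap. The transcripts that begin in 1a include Tpm1-216, so the first exon and the last exon divide this gene differently.

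Tpm2, the beta-tropomyosin gene, had lower means in siMEF2A in every coding transcript, muscle and cytoskeletal alike, without a call. Tpm2-202, the skeletal muscle form with exons 6b and 9a, had 192 and 212 FPKM in siMEF2A libraries, against 285 and 318 FPKM in scrambled libraries. The groups did not overlap, and the mean was 67.0% of scrambled (log2 fold change -0.58, SE 0.18, limma adjusted p = 0.543). Tpm2-203, the 6a and 9d form made in smooth muscle and non-muscle cells, had 135 and 129 FPKM in siMEF2A, against 156 and 184 FPKM in scrambled libraries (77.7%, log2 fold change -0.36, adjusted p = 0.952). Its groups did not overlap either. Tpm2-201, which combines 6a with 9a, had 1.56 and 1.90 FPKM in siMEF2A, against 6.80 and 4.39 FPKM in scrambled libraries (31.0%, log2 fold change -1.25, SE 0.22, adjusted p = 0.0979). It was called as a transcript without scrambled replicate 2 (adjusted p = 0.0275), siMEF2A replicate 1 (adjusted p = 0.0289) or siMEF2A replicate 2 (adjusted p = 0.00209). No stretch of 50 bases in Tpm2-201 is absent from the other listed Tpm2 transcripts, so its value rests on how fragments were divided between them. In Tpm2-202 and Tpm2-203, 4.54% and 11.7% of such stretches are found in no other listed Tpm2 transcript. Their values thus rest partly on that division too.

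Tpm3 carried little muscle RNA in these cells. Tpm3-205, the slow muscle form from 1a to 9a, had 1.64 and 1.10 FPKM in siMEF2A libraries, against 3.18 and 2.95 FPKM in scrambled libraries. Both siMEF2A values lay below the scrambled ones, at 44.8% of their mean (log2 fold change -0.79, SE 0.20, limma adjusted p = 0.332). Tpm3-201, the main cytoskeletal form from 1b to 9d, had 110 and 110 FPKM in siMEF2A, against 82.1 and 101 FPKM in scrambled libraries (121%, log2 fold change 0.27, adjusted p = 1.00). It was the higher in both siMEF2A libraries. Of its 50-base stretches, 5.23% occur in no other listed Tpm3 transcript. Tpm3-202, which begins in 1b and ends in 9a, had 9.84 and 10.0 FPKM in siMEF2A, against 8.92 and 11.4 FPKM in scrambled libraries, and the groups overlapped. Tpm3-204 had 0.644 and 10.7 FPKM in siMEF2A, against 1.83 and 1.82 FPKM in scrambled libraries, so that siMEF2A replicate 2 alone set its mean. Without siMEF2A replicate 1 its log2 fold change was 2.05 (limma adjusted p = 1.50e-05), and without siMEF2A replicate 2 it was -0.78 (adjusted p = 0.327). Only 0.0458% of the 50-base stretches of Tpm3-204 occur in no other listed Tpm3 transcript. A separate listed gene, Tpm3-rs7, holds 69.4% of its 50-base stretches in common with Tpm3-201 and had 10.8 and 11.4 FPKM in siMEF2A, against 10.1 and 11.3 FPKM in scrambled libraries. Reads of Tpm3 and Tpm3-rs7 may have been split between them.

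Tpm4 was listed with a single transcript, Tpm4-201, the cytoskeletal form from 1b to 9d. It had 398 and 373 FPKM in siMEF2A libraries, against 304 and 350.3 FPKM in scrambled libraries. The siMEF2A values were both higher, at 118% of scrambled (log2 fold change 0.24, limma adjusted p = 1.00), and it was not called.

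**Figure D2:**
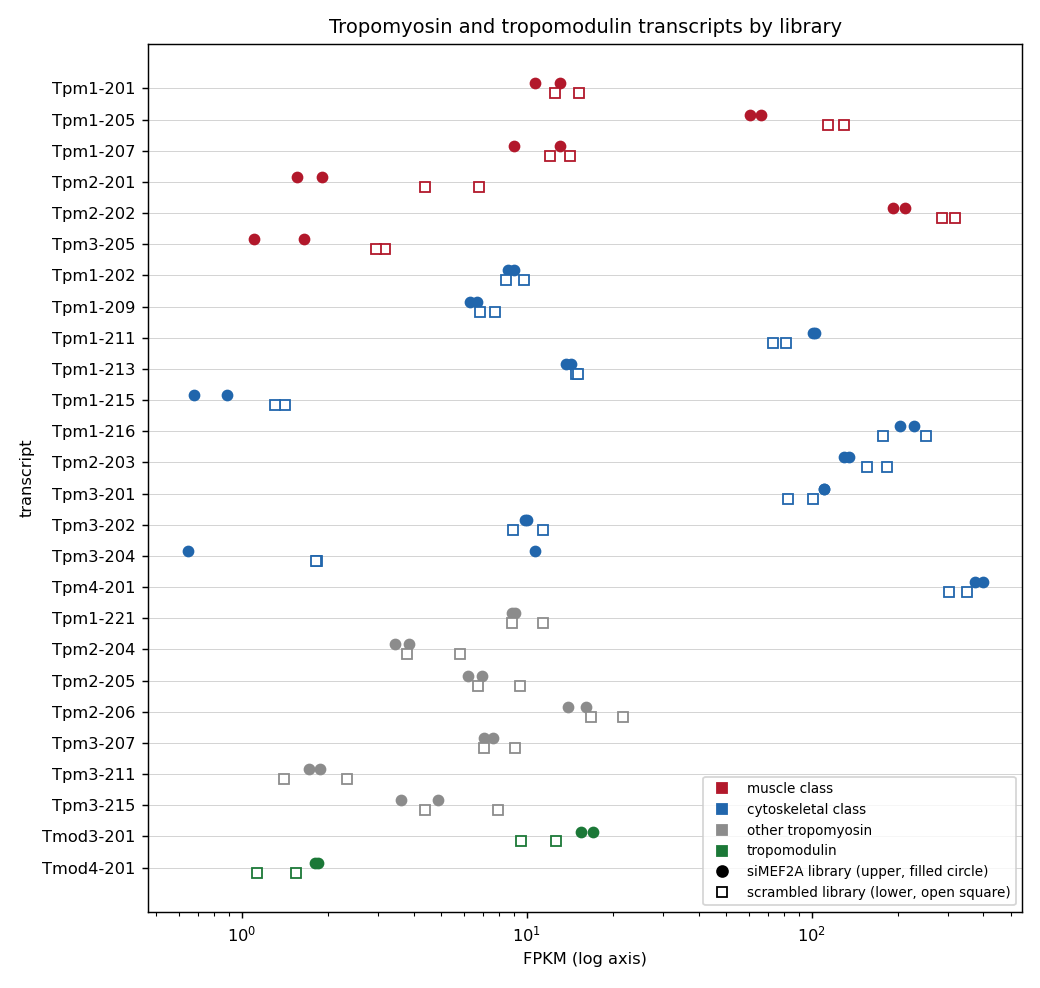
FPKM on a log axis for each of the 26 member transcripts with a mean of at least 1 FPKM, grouped by class. Filled circles are siMEF2A libraries and open squares below them scrambled libraries; Tpm1-205, Tpm2-201, Tpm2-202 and Tpm3-205 are the muscle transcripts whose circles all lie left of their squares.

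Across the family, 0 of 26 tested member transcripts were called by limma, against 0.195% of 23601 transcripts called lower and 0.0297% called higher. At an unadjusted p below 0.05, 4 were lower (Tpm1-205, Tpm2-201, Tpm2-202 and Tpm3-205) and 2 were higher (Tmod3-201 and Tpm1-211), against 2.96% of all transcripts lower and 2.71% higher at the same limit. All 4 that were lower belonged to the muscle class. Both siMEF2A libraries lay below both scrambled libraries in 4 of 6 muscle transcripts and in 4 of 11 tested cytoskeletal ones, against 12.0% of all transcripts tested. Both lay above in 0 of 6 muscle and 3 of 11 cytoskeletal transcripts, against 17.4% of all. Among the cytoskeletal transcripts that lay below, Tpm1-215 passed the minimum of 1 FPKM only through its scrambled libraries. Its means were 0.782 FPKM in siMEF2A and 1.36 FPKM in scrambled libraries. The median log2 fold change was -0.68 over the 6 muscle transcripts, -0.02 over the 11 cytoskeletal transcripts and 0.03 over all transcripts. Over the 7 tested transcripts of the class other it was -0.245, and all 7 had a mean below scrambled. Of 7 tested transcripts of the class other, 6 had overlapping groups, and Tpm2-206 had 16.1 and 14.0 FPKM in siMEF2A, against 16.7 and 21.8 FPKM in scrambled libraries. The muscle class had all of its 6 listed transcripts above the minimum of 1 FPKM. The other 11 member transcripts, of 37, lay under that minimum, none above 1.51 FPKM in any library, and 4 of them were listed at 0 in a library.

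**Figure D3:**
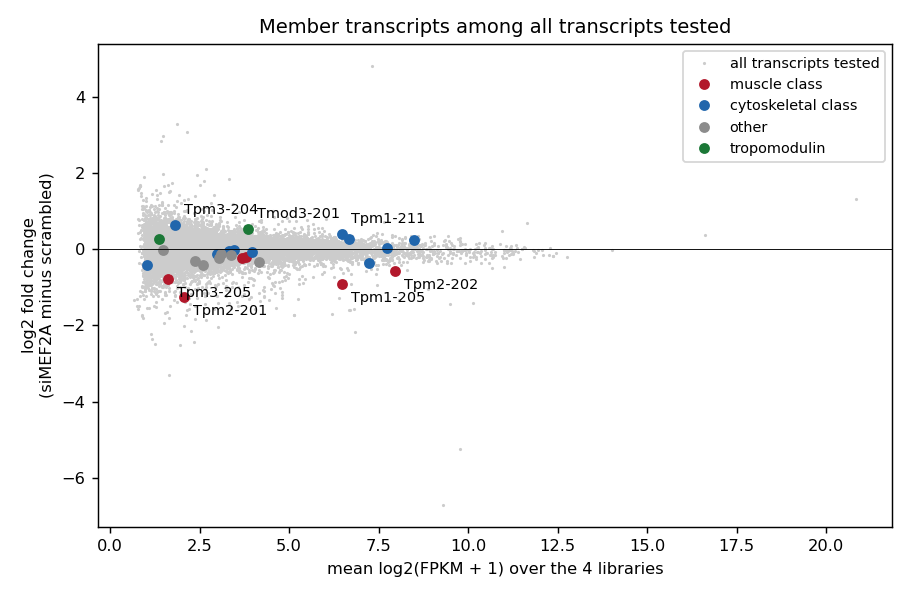
Log2 fold change (siMEF2A minus scrambled) against mean log2(FPKM + 1) for all 23601 transcripts tested in grey, with member transcripts coloured by class. Tpm1-205 lies at -0.93 and Tpm2-202 at -0.58, and neither was called as a transcript. The median over the tested cytoskeletal transcripts was -0.02.

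Summing transcripts into classes gave the balance within each gene. The muscle class of Tpm1 had 80.5 and 92.3 FPKM in siMEF2A libraries, against 141 and 156 FPKM in scrambled libraries (58.1%), while its cytoskeletal class had 336 and 361 FPKM in siMEF2A, against 284 and 364 FPKM in scrambled libraries (108%). The muscle share of Tpm1 was 19.4 ± 0.749% in siMEF2A and 30.8 ± 1.95% in scrambled libraries (SD, n = 2 each). The muscle classes did not overlap between groups, and the cytoskeletal classes did. In Tpm2 the muscle class had 194 and 214 FPKM in siMEF2A, against 292 and 322 FPKM in scrambled libraries (66.3%), and the muscle share of the gene was 54.6% and 58.2% in siMEF2A, against 60.8% and 59.8% in scrambled libraries. In Tpm3 the muscle share was 1.20% and 0.7504% in siMEF2A, against 2.73% and 2.26% in scrambled libraries. In each of these genes the muscle shares of the siMEF2A libraries lay below those of the scrambled libraries. In Tpm2 the gap was narrow, with 58.2% in siMEF2A replicate 2 against 59.8% in scrambled replicate 2. How often shares within a gene separate in this way over all genes was not tested.

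None of the 3 genes passed the test of unequal change between classes. In limma's diffSplice, the muscle class against the rest of its gene differed by -0.76 in Tpm1 (unadjusted p = 0.00277, adjusted p = 0.281), by -0.24 in Tpm2 (unadjusted p = 0.184, adjusted p = 0.999) and by -0.84 in Tpm3 (unadjusted p = 0.00440, adjusted p = 0.347). With the class other left out, a comparison added after the data were seen, muscle against cytoskeletal differed by -0.89 in Tpm1 (adjusted p = 0.307), -0.23 in Tpm2 (adjusted p = 0.999) and -1.07 in Tpm3 (adjusted p = 0.175). Of all 17058 features in that test, 0.141% passed in the lower direction and 0.188% in the higher. The muscle transcript Tpm1-205 thus passed as a transcript against its gene, and the muscle class that holds it did not.

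**Figure D4:**
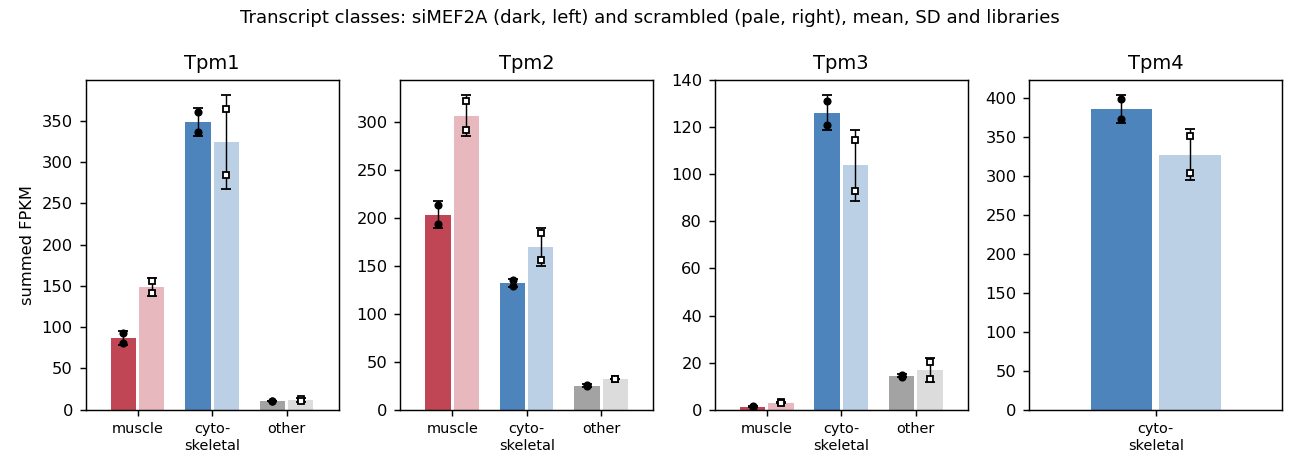
Summed FPKM of the muscle, cytoskeletal and other classes in Tpm1, Tpm2, Tpm3 and Tpm4; bars are means, lines SD and points the 2 libraries, with siMEF2A dark on the left and scrambled pale on the right of each pair. The muscle bars are lower in siMEF2A in Tpm1 (58.1% of scrambled), Tpm2 (66.3%) and Tpm3 (44.8%), without a call, and each panel has its own axis.

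Over all 4 tropomyosin genes together, muscle transcripts made up 20.9% and 22.7% of the listed tropomyosin FPKM in siMEF2A libraries, against 32.6% and 31.0% in scrambled libraries. The means were 21.8 ± 1.28% in siMEF2A and 31.8 ± 1.10% in scrambled libraries (SD, n = 2 each), a gap wider than the spread within either group. An exact permutation test of 2 libraries against 2 cannot give a two-sided p under 0.333, so none is given. The total was 1317 and 1351 FPKM in siMEF2A, against 1339 and 1550.2 FPKM in scrambled libraries, and the groups overlapped. Muscle transcripts summed to 276 and 307 FPKM in siMEF2A, against 436 and 481 FPKM in scrambled libraries. Cytoskeletal transcripts summed to 989.8 and 994 FPKM in siMEF2A, against 837 and 1013 FPKM in scrambled libraries. By gene, Tpm2 held 26.9% and 27.2% of the total in siMEF2A, against 35.8% and 34.7% in scrambled libraries. Tpm4 held 30.2% and 27.6% in siMEF2A, against 22.7% and 22.6% in scrambled libraries, and Tpm1 held between 32.4% and 34.4% in every library.

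**Figure D5:**
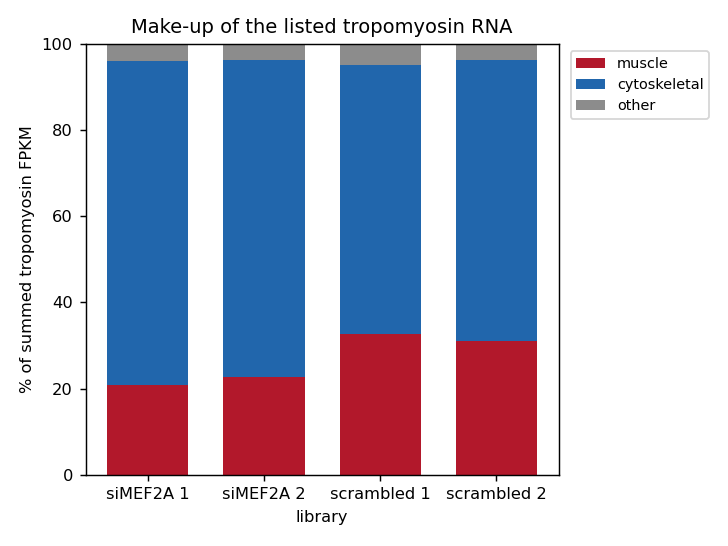
Make-up of the listed tropomyosin RNA in each library, as percent of the summed FPKM of Tpm1, Tpm2, Tpm3 and Tpm4, siMEF2A libraries on the left. The muscle part is 20.9% and 22.7% in siMEF2A libraries and 32.6% and 31.0% in scrambled libraries.

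Summed by gene, 0 of 6 tested members were called by limma, against 1.31% of 11824 genes called lower and 0.406% called higher. Tpm1 had 427 and 464 FPKM in siMEF2A, against 439 and 531 FPKM in scrambled libraries (91.9%, log2 fold change -0.12, limma adjusted p = 1.00), with overlapping groups. Tpm2 had 354.7 and 367 FPKM in siMEF2A, against 480 and 538 FPKM in scrambled libraries, with both siMEF2A values below both scrambled ones (70.9%, log2 fold change -0.49, SE 0.20, unadjusted p = 0.0197, adjusted p = 0.464). Tpm3 had 137 and 146 FPKM in siMEF2A, against 117 and 131 FPKM in scrambled libraries (115%, log2 fold change 0.20, adjusted p = 1.00). Both siMEF2A libraries lay below both scrambled ones in 1 tested member gene, against 9.13% of all genes, and above in 4, against 18.8%. At an unadjusted p below 0.05, 1 member gene was lower (Tpm2) and 1 was higher (Tmod3), against 3.29% of all genes lower and 3.1% higher.

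Among the tropomodulins none was called. Tmod3, the broadly expressed tropomodulin of non-muscle cells, had 17.1 and 15.5 FPKM in siMEF2A libraries, against 9.53 and 12.6 FPKM in scrambled libraries. Both siMEF2A values lay above both scrambled values, at 147% of their mean (log2 fold change 0.53, SE 0.16, unadjusted p = 0.00187, limma adjusted p = 0.0882), which missed the threshold. Without scrambled replicate 2 its limma adjusted p was 0.0132, and leaving out any other library made no call. The gene was listed with 1 transcript, Tmod3-201. Tmod4, the tropomodulin of skeletal muscle, had 1.96 and 2.48 FPKM in siMEF2A, against 1.89 and 1.88 FPKM in scrambled libraries (118%, log2 fold change 0.15, adjusted p = 1.00). Its complete coding transcript, Tmod4-201, had 1.80 and 1.85 FPKM in siMEF2A, against 1.55 and 1.13 FPKM in scrambled libraries. Tmod1, found in striated muscle and red cells, had 0.606 and 0.506 FPKM in siMEF2A, against 0.690 and 0.517 FPKM in scrambled libraries and was too low to test. The span of Tmod1 overlaps that of Tstd2 on the opposite strand, a gene at 13.3 and 13.8 FPKM in siMEF2A and 12.8 and 12.9 FPKM in scrambled libraries. Whether their exons overlap was not examined. Use of strand is not stated, so reads from any shared stretch could not be told apart.

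The leiomodins Lmod2 and Lmod3, tropomodulin relatives that lengthen thin filaments, are in the list of thin filament partners. Lmod2 had 1.96 and 2.27 FPKM in siMEF2A, against 3.53 and 5.33 FPKM in scrambled libraries, and fell (47.7%, log2 fold change -0.78, SE 0.16, limma adjusted p = 0.00272). Lmod3 had 2.67 and 3.55 FPKM in siMEF2A, against 5.84 and 7.25 FPKM in scrambled libraries, and fell likewise (47.5%, log2 fold change -0.88, SE 0.16, adjusted p = 0.000459).

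Thin filament partners of muscle tropomyosin were broadly lower. Of 18 tested members of that list, 14 fell and 0 rose, against the background of 1.31% of genes called lower. The median log2 fold change was -0.91, against 0.04 over all genes. Neb, among those that fell, had means of 0.988 FPKM in siMEF2A and 1.94 FPKM in scrambled libraries. It thus passed the minimum of 1 FPKM only through the scrambled libraries. The troponins, which sit on tropomyosin and make it respond to calcium, were among those that fell the most. Tnnc2, the fast calcium-binding troponin, had 61.6 and 56.3 FPKM in siMEF2A, against 177 and 184 FPKM in scrambled libraries (32.6%, log2 fold change -1.60, SE 0.17, limma adjusted p = 4.80e-08). Tnni2, the fast inhibitory troponin, had 60.4 and 46.8 FPKM in siMEF2A, against 172 and 155 FPKM in scrambled libraries (32.8%). Tnni1, its slow counterpart, had 85.4 and 71.6 FPKM in siMEF2A, against 246 and 231 FPKM in scrambled libraries (33.0%). Tnnt1, Tnnt2 and Tnnt3, the troponins that bind tropomyosin, stood at 49.6%, 51.9% and 45.2% of scrambled and were all called. Actc1, the cardiac actin also made by young skeletal muscle, had 128 and 126 FPKM in siMEF2A, against 229 and 260 FPKM in scrambled libraries (51.9%, adjusted p = 0.00106). The capping, severing and formin genes of the list were not called: Capza2, Capzb, Cfl2 and Fhod3 had 96.6%, 106%, 90.7% and 110% of their scrambled means.

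Partners of cytoskeletal actin showed no call. Of 23 tested members, 0 passed in either direction by limma, against 1.31% of all genes called lower and 0.406% called higher. Their median log2 fold change was 0.04. Actb and Actg1, the cytoskeletal actins, had 107% and 113% of their scrambled means. Genes that regulate tropomyosin splicing or muscle splicing gave 0 calls among 16 tested, against the same shares of all genes. Their median was 0.03. Rbfox1 and Rbm24, also on that list, were too low to test. Their means were 0.687 and 0.417 FPKM in siMEF2A, against 1.20 and 0.774 FPKM in scrambled libraries. Ptbp1, which represses muscle exons of tropomyosin genes, had 47.3 and 54.3 FPKM in siMEF2A, against 48.3 and 52.2 FPKM in scrambled libraries. Rbm38 had 3.13 and 4.73 FPKM in siMEF2A, against 5.07 and 7.23 FPKM in scrambled libraries (log2 fold change -0.54, limma adjusted p = 0.127). Mbnl1 had 38.2 and 42.3 FPKM in siMEF2A, against 28.7 and 34.0 FPKM in scrambled libraries (log2 fold change 0.35, adjusted p = 0.606). At an unadjusted p below 0.05 there were 0 among the cytoskeletal actin partners and 3 among the splicing regulators, with Rbm38 lower and Mbnl1 and Mbnl3 higher, against 3.29% of all genes lower and 3.1% higher.

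Markers of other cell types that use the same tropomyosin forms were followed in the same libraries. Of 3 tested smooth muscle markers, 1 was lower, against 1.31% of all genes. This gene, Tagln, had 28.2 and 29.0 FPKM in siMEF2A, against 49.9 and 49.4 FPKM in scrambled libraries (57.5%, limma adjusted p = 0.00178). Acta2, also made by differentiating myoblasts, had 455 and 541 FPKM in siMEF2A, against 576 and 711 FPKM in scrambled libraries. Smtn had 91.4% of its scrambled mean, and neither Acta2 nor Smtn was called. Lmod1 and Smoc2 were too low to test. Lmod1 was the lower in siMEF2A (mean 0.238 FPKM, against 0.388 FPKM in scrambled) and Smoc2 the higher (0.342 FPKM, against 0.178 FPKM). The summed smooth muscle markers had 507 and 598 FPKM in siMEF2A, against 655 and 789 FPKM in scrambled libraries. Most of that sum was Acta2, and Myh11 and Cnn1 were not among the transcripts listed. Of 6 tested fibroblast markers, 0 were called, their median log2 fold change was 0.22, and they summed to 458 and 524 FPKM in siMEF2A, against 352 and 485 FPKM in scrambled libraries. Cardiac markers had sums between 1.45 and 2.52 FPKM over the 4 libraries, and the 1 listed erythroid marker lay below 1 FPKM in each. Whether these levels have a part in the tropomyosin values was not tested.

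The start sites of the genes were looked at in RefSeq promoter windows of GRCm38.p6 (mm10), from 250 bases before to 50 after the start. Windows were given for all members but Tmod3, with 2 windows for Tpm3. The motifs searched on both strands were the E box CANNTG, bound by myogenic factors, MCAT (CATTCC), the MEF2 site and the CArG box. The 2 genes with the most muscle RNA are printed, with E boxes and MCAT motifs in capitals.
Tpm1 promoter, chr9:67049164-67049463, minus strand: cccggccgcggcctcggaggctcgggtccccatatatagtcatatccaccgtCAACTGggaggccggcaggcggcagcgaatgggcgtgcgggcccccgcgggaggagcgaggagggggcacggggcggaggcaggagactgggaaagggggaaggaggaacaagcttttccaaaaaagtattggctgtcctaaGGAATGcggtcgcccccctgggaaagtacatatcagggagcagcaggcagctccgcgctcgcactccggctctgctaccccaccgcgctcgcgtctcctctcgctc
Tpm2 promoter, chr4:43523505-43523804, minus strand: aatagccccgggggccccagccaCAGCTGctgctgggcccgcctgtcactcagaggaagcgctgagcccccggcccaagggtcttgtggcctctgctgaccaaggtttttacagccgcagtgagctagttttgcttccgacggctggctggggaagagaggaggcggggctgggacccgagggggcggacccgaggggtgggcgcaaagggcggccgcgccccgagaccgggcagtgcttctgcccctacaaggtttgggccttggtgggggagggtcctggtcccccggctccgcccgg

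The start of the Tpm1 window is the annotated 5′ end of Tpm1-205, so it precedes exon 1a and not 1b. Tpm1 held 1 E box, 198 bases before the start, and 1 MCAT motif, 56 bases before it. Tpm2 held 1 E box, 227 bases before the start, and no MCAT motif. The annotated 5′ end of the muscle form Tpm2-202, at chr4:43523388, lies downstream of this window. The bases just before that 5′ end were therefore not searched. Both Tpm3 windows and the Tpm4 window held 1 E box each, Tmod4 held 2, and Tmod1 held 1 MCAT motif. Over all 32851 windows, 72.3% held an E box and 14.7% an MCAT motif. No member window held a MEF2 site or a CArG box, which 3.19% and 1.63% of all windows held. A match is a run of letters and not a measured site, and the windows do not cover introns or distant elements.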

How the data were processed

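Transcript abundance in 4 C2C12 libraries was deposited by the authors as FPKM per Ensembl transcript, per the file headers. CASAVA, Trimmomatic, TopHat, Bowtie and Cufflinks, with the mm10 build, are named in the submitters' processing notes. Not given in the sources used here: tool versions, the annotation, the scaling between libraries and any use of strand. Values were used as deposited, as log2(FPKM + 1), and features with a mean of at least 1 FPKM were kept after leaving out 26 small RNA symbols. Transcripts of a symbol were summed. The siMEF2A and scrambled libraries were set against each other in limma 3.58.1, run in R 4.3.3 (linear fits with a trended prior, and diffSplice for transcripts or classes against the rest of their gene), with p-values adjusted by Benjamini and Hochberg over all features. Residual degrees of freedom were 2, and the prior added 29.7 for genes and 6.23 for transcripts. In those fits a p thus rests mostly on the spread pooled over features. In diffSplice the spread was pooled over the rows of a gene as well, each counted as independent. Rows of a gene share sequence and the same 4 libraries, so a diffSplice p may be too small. The scripts were tested on simulated data. Classes came from GENCODE M21 coding exons, with exon names assigned by hand. Of the listed transcripts, 97.3% were found in that annotation by identifier. Members, lists and tests were chosen with earlier results of these data known. All member transcripts above the minimum were to be named, and genes whose pattern was most like a called member gene; no member gene was called, so none was named. Alternatives changed the pseudocount, the filter, the scaling, the gene types tested and the libraries.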

Additional observations from a re-analysis of the deposited data

How the results depend on the processing

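Groups of 2 libraries, unknown depth and FPKM estimated among overlapping transcripts limit every value here, and where 1 library is left out the lone sample is assumed to vary like the others. Of 421 repeats for single genes, transcripts and classes, none of which was called with the settings of the report, 399 kept their direction and stayed uncalled, 10 were called and 12 changed sign uncalled. The only call, Tpm1-205 against its gene, was lost in 6 of its 13 repeats. The number of member genes called lower was 1 with a replicate block (Tpm2, limma adjusted p = 0.00867). The number called higher was 1 with a minimum of 5 FPKM, with a replicate block and with protein-coding transcripts alone, each time Tmod3 (adjusted p = 0.0439, 0.0134 and 0.0484 in that order), and 0 to 1 over the fits that left out a replicate. The labels do not say that the replicate numbers pair libraries, and deviations of same-numbered libraries correlated at 0.29 over genes. Member transcripts called lower numbered 1 with a minimum of 5 FPKM (Tpm1-205, adjusted p = 0.00388) and 0 to 1 when leaving out a replicate, where the transcript was Tpm2-201; those called higher numbered 0 to 1 (Tpm3-204). Transcripts called against their gene numbered 0 with no filter and 0 after quantile normalization, and 0 to 1 when leaving out a replicate. Tpm1-205 against its gene gave -0.80 with a pseudocount of 0.1, -0.90 with no filter, -0.79 after quantile normalization and -0.96 to -0.78 when leaving out a replicate; these alternatives were chosen after seeing the data, and the cause of each lost call was not tested. With a replicate block it gave -0.83 (limma adjusted p = 0.0399). With a pseudocount of 0.1 and without scrambled replicate 2 the transcript called was Tpm2-201, and without siMEF2A replicate 1 it was Tpm3-204. The number of tropomyosin genes whose classes changed unequally was 0 in every alternative run. Scaling moved the median log2 fold change of all genes to at most 0.02.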
